A study of Mus musculus with 6 samples.

Results

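A set of 101 protein-coding transcripts was plainly counted in microglia labelled IRF8KO and close to missing in WT microglia. Members were chosen by their levels: at least 2 CPM in every IRF8KO library, and a mean WT level at most 1/30 of the mean IRF8KO level. A CPM value is a count divided by the library's gene counts without Apoe, times 1000000. Of 21734 protein-coding genes in the tables, 113 met these limits. The rule set 12 names aside, among them Apoe, Pf4, Ms4a7, Runx3 and C3, and any solute carrier (none met the limits), which left the 101 members. Because the 6 libraries themselves chose the members, the difference between genotypes is given for them as a description and carries no test.

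Microglia, the resident macrophages of the brain, came from male mice aged 3 months, 3 WT and 3 IRF8KO, with each library made from the cells of a separate brain. IRF8KO stands for loss of the transcription factor IRF8; the labels name neither the allele nor the strain, and no treatment. The brains were dissociated without enzymes, the sorted cells went into TRIzol, and polyadenylated RNA was copied with a low-input full-length kit that keeps no strand information and no molecular identifiers. Where 3 values are given for a genotype, they belong to replicates 1, 2 and 3 in that order.

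IRF8 belongs to the interferon regulatory factors and is made in macrophages and related myeloid cells. It binds DNA mostly with partners: with the ETS factor PU.1 at composite elements, and with other interferon regulatory factors at interferon-stimulated response elements, where it can activate or repress. In the brain it is known for its part in the development of microglia and in their response to injury.

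Gene counts per library ranged from 3658917 to 11098363, and Apoe held 25.5% to 33.7% of them in IRF8KO against 0.154% to 0.324% in WT, and was left out of the denominator. Irf8 itself was still counted, at 1119, 1109 and 1289 CPM in WT and 776, 893 and 981 CPM in IRF8KO (log2 fold change −0.44, SE 0.33; adjusted p = 0.368, Benjamini-Hochberg, in edgeR's quasi-likelihood test). A count over the whole gene cannot tell an intact from a truncated transcript, so every direction here rests on the libraries' labels. The granule genes S100a8, Ngp and Camp of neutrophils were high in IRF8KO replicate 2 alone, at 0.839, 166 and 0, 0, 109 and 0 and 0, 80.1 and 0.250 CPM in IRF8KO. S100a9 and Ltf of the neutrophil list had 0, 78.5 and 0.125 and 0, 48.4 and 0 CPM in IRF8KO. Lcn2 had 0, 0 and 1.14 CPM in WT and 0, 21.1 and 0 CPM in IRF8KO. Retnlg and Ly6g were counted in IRF8KO replicate 2 alone, at 3.08 and 1.23 CPM. Cxcr2 had 0 counts in WT and 1.68, 5.67 and 2.003 CPM in IRF8KO, highest in replicate 2 but present in every IRF8KO library. Mmp9 did not follow, with 0 counts in WT and 3.19, 1.36 and 0 CPM in IRF8KO, highest in replicate 1. Genes of red blood cells had no counts in the first and second WT libraries, 53.0 CPM in WT replicate 3 and 56.2 to 504 CPM in the IRF8KO libraries. The part of either pattern in the results was not tested.

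The promoters of 5 members are shown because each holds a match to the interferon-stimulated response element, searched as GAAA and GAAA parted by any 2 bases on either strand, which is in capitals, and because 4 of the 5 lie in groups of neighbouring members. Each run is the 250 bases before the start site given by RefSeq on assembly GRCm38.p6, read 5′ to 3′ on the gene's strand, which is the minus strand for all of them. They lie at chr5:137836279-137836528 for Pilra, chr5:137858050-137858299 for Pilrb1, chr5:137871759-137872008 for Pilrb2, chr5:120777660-120777909 for Oas3 and chr17:71311557-71311806 for Emilin2.
Pilra: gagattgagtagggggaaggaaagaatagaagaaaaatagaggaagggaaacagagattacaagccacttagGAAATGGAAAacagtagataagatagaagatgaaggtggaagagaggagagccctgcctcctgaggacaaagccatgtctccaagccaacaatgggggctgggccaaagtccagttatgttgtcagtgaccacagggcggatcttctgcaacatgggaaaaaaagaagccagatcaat
Pilrb1: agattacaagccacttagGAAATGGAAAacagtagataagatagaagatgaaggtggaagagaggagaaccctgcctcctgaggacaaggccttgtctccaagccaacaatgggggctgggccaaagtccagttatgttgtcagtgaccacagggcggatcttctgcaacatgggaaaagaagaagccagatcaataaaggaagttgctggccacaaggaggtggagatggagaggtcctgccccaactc
Pilrb2: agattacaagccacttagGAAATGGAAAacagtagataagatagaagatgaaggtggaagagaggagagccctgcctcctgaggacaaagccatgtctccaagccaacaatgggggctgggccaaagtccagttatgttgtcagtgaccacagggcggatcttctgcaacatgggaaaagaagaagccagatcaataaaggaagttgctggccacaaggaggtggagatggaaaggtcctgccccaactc
Oas3: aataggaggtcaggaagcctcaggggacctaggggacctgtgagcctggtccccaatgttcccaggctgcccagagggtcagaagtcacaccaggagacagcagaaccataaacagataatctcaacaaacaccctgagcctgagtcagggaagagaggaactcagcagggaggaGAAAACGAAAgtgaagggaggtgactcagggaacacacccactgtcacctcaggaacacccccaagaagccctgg
Emilin2: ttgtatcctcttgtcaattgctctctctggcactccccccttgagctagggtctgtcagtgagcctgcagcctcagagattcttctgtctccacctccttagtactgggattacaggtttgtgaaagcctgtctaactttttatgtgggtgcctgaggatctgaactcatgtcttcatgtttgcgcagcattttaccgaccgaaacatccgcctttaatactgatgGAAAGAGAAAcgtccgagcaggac
The matches begin 178 bases before the start of Pilra, 232 bases before those of Pilrb1 and Pilrb2, 75 bases before that of Oas3 and 24 bases before that of Emilin2. The Pilr promoters are copies of each other. Over 300 bases (these 250 and the 50 that follow) Pilrb1 and Pilrb2 were 97.3% identical, and Pilra, moved by 54 bases, was 98.4% identical to Pilrb1 and 99.2% to Pilrb2 over 246 bases. Their 3 matches lie in the same aligned stretch.

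The members' levels added up to 81.6, 89.2 and 162 CPM in WT and to 6289, 6672 and 6250 CPM in IRF8KO. Their depth in WT was thin: 29 had 0 counts in all WT libraries, 24 had 1 to 3 counts in all and 48 had 4 or more. For a gene at 0 in WT, each fold written as "at least" is taken against a floor of 3 counts over the pooled WT libraries, or 0.134 CPM. This floor is not a strict limit: 3 counts that all fell in WT replicate 1, the shallowest library, would average 0.274 CPM over the WT libraries. The lower ends of the exact 95% counting intervals were also smaller than these folds, at 14.9 to 239.7 over the 29 genes. Intervals and floors cover counting error only. The median fold was 61.4 with those genes at the floor and 59.7 with them at the lower ends of their intervals. In IRF8KO the mean level ranged from 2.59 CPM for Serpina12 to 2183 CPM for Htra3, with a median of 13.5 CPM, and 11 members reached 100 CPM. Every IRF8KO library lay above every WT library for all 101 members, which the limits nearly fix, and the same held for 22.2% of the 10338 protein-coding genes that passed the expression filter. All 101 members passed the filter and were called higher in IRF8KO, against 9.51% of those genes; as the limits used this contrast, nothing is read from that count. In a bulk sample, more cells of a type and more RNA per cell cannot be told apart.

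**Figure D1:**
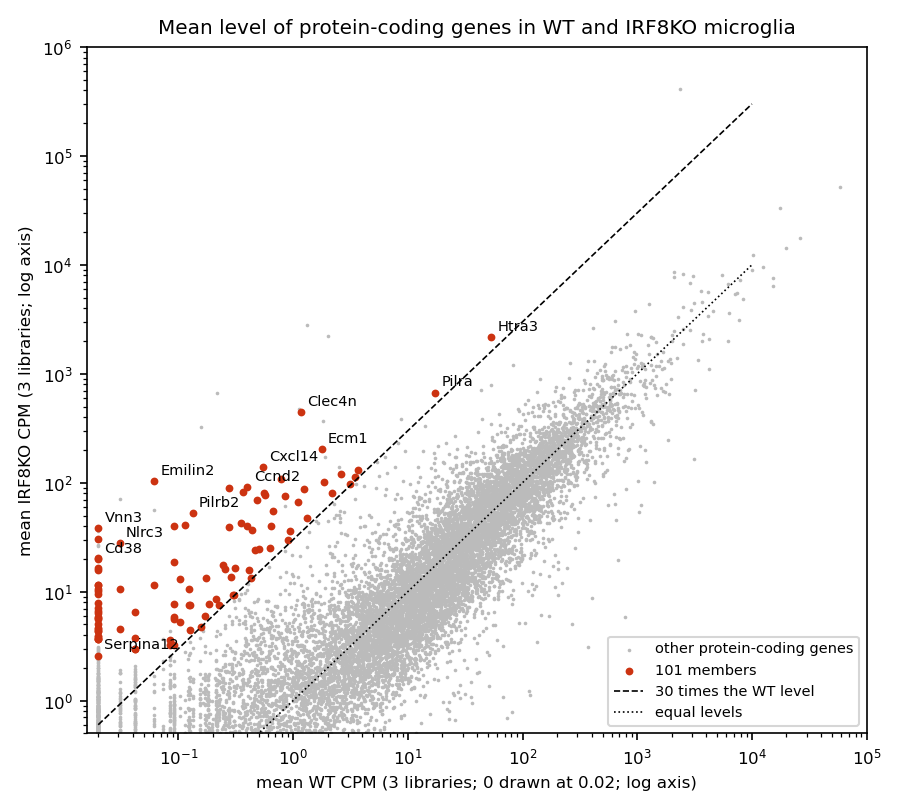
Mean level of protein-coding genes in WT (x axis, CPM without Apoe, log scale, 0 drawn at 0.02) and IRF8KO (y axis, CPM, log scale), each over 3 libraries. Genes with a mean IRF8KO level below the lower end of the y axis are not drawn. The 101 members are in red and the other genes drawn are in gray, including genes set aside by name. Members lie on or above the dashed line at 30 times the WT level, and those with 0 WT counts form the column at the left edge.

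Among secreted and matrix proteins, Htra3 stood far above every other member. It encodes a secreted serine protease of the HTRA family that dampens signalling by the TGF-beta family (ENSMUSG00000029096, chr5:35652023-35679782, minus strand). Htra3 was counted at 41.1, 28.96 and 90.2 CPM in WT and 2421, 2242 and 1886 CPM in IRF8KO, a 40.9-fold difference of the means. WT replicate 3 was the highest of the WT libraries and IRF8KO replicate 3 the lowest of the IRF8KO libraries. Htra3 alone made up 30.2% to 38.5% of the members' counts in the IRF8KO libraries. Scaled to exonic length it also led, at 492 CPM per kb in IRF8KO, ahead of Clec4n at 314, Pilra at 218 and Cox6a2 at 165 CPM per kb.

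The other 16 members of the adhesion and matrix group ranged in IRF8KO from 3.21 CPM for Smoc1, a calcium-binding matrix protein, to 202 CPM for Ecm1. Ecm1, a secreted matrix glycoprotein, had 1.64, 0 and 3.67 CPM in WT and 155, 196 and 256 CPM in IRF8KO. Lgals1, the sugar-binding galectin-1, had 2.19, 3.14 and 5.70 CPM in WT and 129.5, 107 and 153 CPM in IRF8KO. Both were lowest in WT in replicate 1 or 2 and highest in replicate 3 of either genotype, and their folds were 114 and 35.3. Emilin2, an elastic-fibre-associated glycoprotein, was the member with the sharpest contrast among those above 100 CPM, with 2 WT counts in all against 2255 IRF8KO counts. Its IRF8KO levels were 108, 103 and 97.3 CPM, and the ratio of the scaled counts was 1144 (exact 95% counting interval 316 to 9454). All IRF8KO libraries were nearly level for this gene.

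Itgal encodes the alpha chain of the integrin LFA-1, by which leukocytes hold on to other cells. It was at 0, 2.40 and 3.17 CPM in WT and 125, 105 and 76.1 CPM in IRF8KO, with the highest level in IRF8KO replicate 1. Itga4, the alpha chain of the integrin VLA-4, was far less even: 0, 0.369 and 0 CPM in WT and 2.85, 22.6 and 6.38 CPM in IRF8KO, so that replicate 2 carried most of its IRF8KO signal. Cspg4, the proteoglycan NG2 known from oligodendrocyte precursors and pericytes, had 1.10, 0.369 and 0.253 CPM in WT and 61.2, 56.6 and 114 CPM in IRF8KO and was highest in IRF8KO replicate 3. Several pericyte and fibroblast markers were at 0 beside it: Rgs5, Kcnj8, Col1a2, Dcn and Lum had 0 counts in all 6 libraries. The summed level of the fibroblast and mural list was 0.127 to 11.8 CPM in WT and 1.001 to 9.90 CPM in IRF8KO. Pdgfrb, also a mural marker, had 1.37, 0.0922 and 0 CPM in WT and 7.55, 2.10 and 0.125 CPM in IRF8KO and was not called. Vtn on the same list had 6.30, 0 and 0 CPM in WT and 2.18, 1.60 and 0.876 CPM in IRF8KO. On the oligodendrocyte list, Olig1 had 1.10, 0.830 and 2.41 CPM in WT and 7.72, 3.08 and 5.38 CPM in IRF8KO. It was not called (adjusted p = 0.129 in the edgeR test). Olig2 had 0 counts in all 6 libraries, and Sox10 was at or under 0.740 CPM in each.

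Cd44, the hyaluronan receptor, had 0.274, 0.277 and 0.380 CPM in WT and 10.6, 26.998 and 11.5 CPM in IRF8KO, again highest in replicate 2. Tsku, a small leucine-rich secreted protein that binds signalling ligands, had 0 counts in every WT library and 23.99, 36.98 and 29.5 CPM in IRF8KO, at least 225-fold higher. F13a1, the catalytic subunit of coagulation factor XIII and a gene of tissue macrophages, also had 0 counts in WT, with 4.86, 6.41 and 7.64 CPM in IRF8KO, at least 47.04-fold higher. Mcam, Ccn1 and Serpinh1 had 1, 3 and 1 counts over the WT libraries, and their means in IRF8KO were 10.6, 18.9 and 7.64 CPM. Egfl7, Hs3st2 and Gpc1 made up the rest of the group at means of 13.7, 7.64 and 5.64 CPM in IRF8KO.

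Paired immune receptors formed the next group. Such receptors sit in gene clusters, and the activating kind signals through an adaptor such as DAP12, which is encoded by Tyrobp, or through the Fc receptor gamma chain. Tyrobp, no member, was at 1972, 2424 and 3133 CPM in WT and 7986, 7614 and 8923 CPM in IRF8KO and was called higher (log2 fold change 1.65, SE 0.41; adjusted p = 0.0159 in the edgeR test). That call was lost when a single library was left out, with an adjusted p of up to 0.0975 in the same edgeR test.

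Pilra, the inhibitory receptor of the Pilr pair, led them (ENSMUSG00000046245, chr5:137821952-137836281, minus strand). It had 14.8, 16.2 and 20.9 CPM in WT and 648, 677 and 694 CPM in IRF8KO, a 38.9-fold difference. The libraries of each genotype agreed closely, and the coefficient of variation in IRF8KO was 3.50%. Its activating counterparts Pilrb2 and Pilrb1 had 2 and 3 counts over the WT libraries. Pilrb2 reached 56.5, 46.4 and 55.5 CPM in IRF8KO, a ratio of 587 (exact 95% counting interval 162 to 4849), and Pilrb1 reached 13.6, 9.99 and 15.8 CPM, a ratio of 97.4 (exact 95% counting interval 33.003 to 475). The exons of Pilrb1 and Pilrb2 were not compared here, so how reads split between them is not known, and 15.1% of the exonic length of Pilra overlaps another gene.

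In the Cd300 family, whose members bind lipids on cell surfaces, Cd300lb and Cd300e were members. Cd300lb, an activating receptor, had 0.822, 3.60 and 3.42 CPM in WT and 126, 124 and 114 CPM in IRF8KO, a 46.5-fold difference. Cd300e had 0 counts in WT and 3.52, 4.31 and 5.76 CPM in IRF8KO, at least 33.8-fold higher. WT replicate 1 was the lowest library for Cd300lb, and the IRF8KO libraries were nearly level.

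Trem1, which amplifies inflammatory responses through DAP12, had 0, 0 and 2.53 CPM in WT and 72.1, 52.5 and 99.8 CPM in IRF8KO, an 88.6-fold difference of the means. All its 20 WT counts came from replicate 3, and WT replicates 1 and 2 were at 0. Trem3, its neighbour, had 0 counts in WT and 7.72, 6.29 and 7.14 CPM in IRF8KO, at least 52.6-fold higher. Trem2, the microglial receptor of the same cluster, was at 2832, 2736 and 3761 CPM in WT and 4413, 4191 and 4851 CPM in IRF8KO and was not called (log2 fold change 0.48; adjusted p = 0.402 in the edgeR test).

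Cd244a, a receptor of the SLAM family best known from natural killer cells, was even in WT at 2.19, 2.40 and 2.03 CPM and reached 57.9, 93.9 and 89.003 CPM in IRF8KO, a 36.4-fold difference. Cd163, the scavenger receptor for haemoglobin and a marker of border macrophages, had 0 counts in WT and 9.06, 17.1 and 8.64 CPM in IRF8KO, at least 86.6-fold higher and highest in replicate 2. Ly6i, a lipid-anchored protein with close copies among its neighbours, had 0.548, 0 and 0.760 CPM in WT and 40.3, 39.2 and 31.5 CPM in IRF8KO. Cd4 and Cd96, receptors of T cells and natural killer cells, had 0 counts in WT and 4.36, 4.56 and 5.13 and 4.86, 2.59 and 3.63 CPM in IRF8KO. Among lymphocyte markers, Cd3e, Cd8a, Ms4a1 and Ncr1 were at 0 in each of the 6 libraries, where up to 3 counts could have been missed. Genes of natural killer cells were at 0 in WT and low in IRF8KO: Klrb1c had 0, 2.59 and 0.501 CPM and Nkg7 had 0, 0.616 and 0 CPM there. Nearly all of the list's summed level, 639 to 724 CPM in WT and 21.6 to 22.8 CPM in IRF8KO, was Ighm, at 639, 724 and 695 CPM in WT and 21.5, 18.6 and 21.8 CPM in IRF8KO. Ighm, the heavy chain of IgM, fell (log2 fold change −5.06; adjusted p = 4.81e-06 in the edgeR test). The part of lymphocyte RNA in these members' levels was not tested. Zap70, a T-cell receptor kinase and another member, had 3 counts over the WT libraries and 10.2, 2.22 and 5.01 CPM in IRF8KO.

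**Figure D2:**
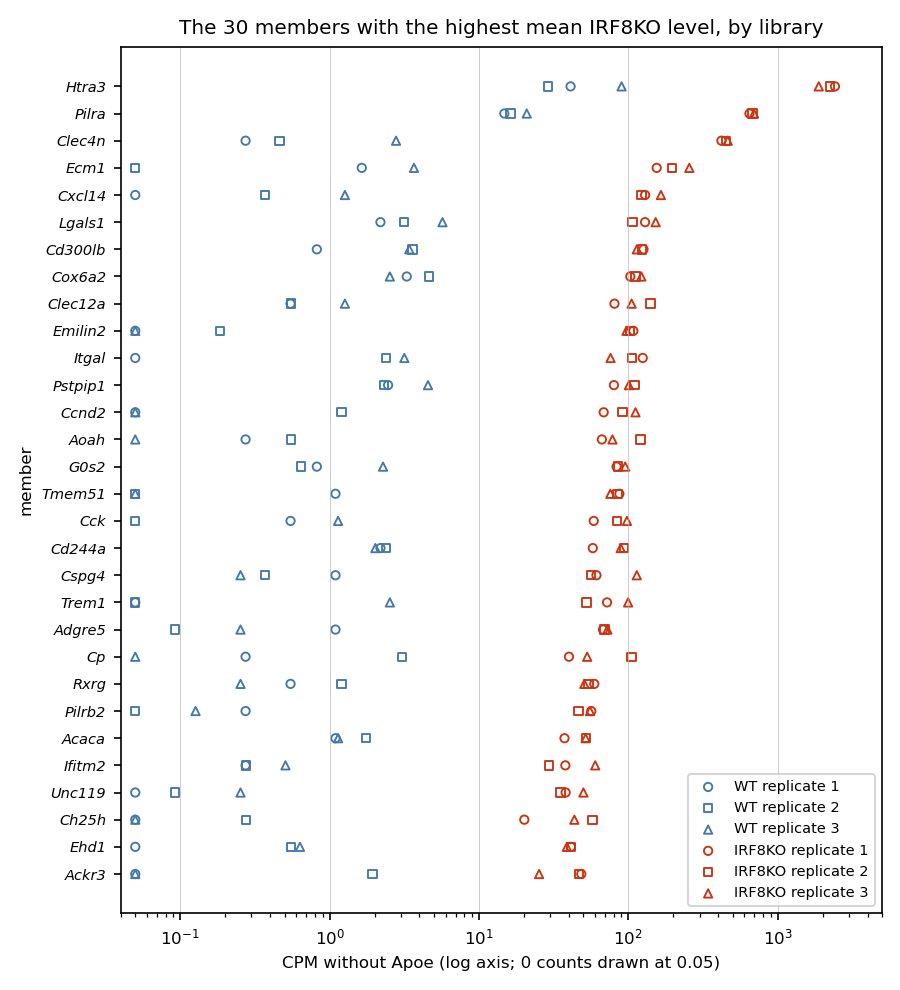
Level of the 30 members with the highest mean IRF8KO level (rows) in each library on a log axis of CPM without Apoe, with 0 counts drawn at 0.05. Blue symbols are the 3 WT libraries and red symbols the 3 IRF8KO libraries, with the symbol giving the replicate. The red symbols run from 2421 CPM for Htra3 down to 20.1 CPM for Ch25h, both in replicate 1. Every red symbol of a row lies to the right of every blue one, which the limits nearly fix.

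C-type lectins were led by Clec4n, the receptor Dectin-2 that binds fungal mannans (ENSMUSG00000023349, chr6:123229843-123247021, plus strand). Clec4n had 0.274, 0.461 and 2.79 CPM in WT and 420.4, 453 and 463 CPM in IRF8KO, a 379.6-fold difference of the means, the highest of the members with 4 or more WT counts. WT replicate 3 held most of the WT counts, and the IRF8KO libraries were level. Clec4d, which pairs with it on the cell surface and lies next to it, had 0 counts in WT and 4.53, 7.40 and 11.6 CPM in IRF8KO, at least 58.6-fold higher. Clec12a, an inhibitory receptor that senses dying cells, had 0.548, 0.553 and 1.27 CPM in WT and 80.9, 141 and 105 CPM in IRF8KO, a 138-fold difference. Klrb1b and Klra17, of the families of natural killer cell receptors, were low, at 3.36, 7.15 and 7.14 and 3.02, 2.96 and 7.51 CPM in IRF8KO; 26.9% of the exonic length of Klrb1b overlaps another gene, and Klra17 has close copies.

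Secreted signals included Cxcl14, a chemokine with broad tissue expression, at 0, 0.369 and 1.27 CPM in WT and 129.7, 123 and 165 CPM in IRF8KO, a 256-fold difference. Cck, the precursor of the neuropeptide cholecystokinin, was at 0.548, 0 and 1.14 CPM in WT and 58.7, 84.2 and 98.02 CPM in IRF8KO, a 143-fold difference. For both, WT replicate 3 was the highest WT library and IRF8KO replicate 3 the highest IRF8KO library. Cp, the copper-carrying ferroxidase ceruloplasmin, had 0.274, 3.04 and 0 CPM in WT and 40.1, 105 and 53.1 CPM in IRF8KO, and replicate 2 was the highest library of each genotype. Ttr, the thyroid hormone carrier made in the choroid plexus, had 0, 2.58 and 0.253 CPM in WT and 39.1, 54.2 and 15.1 CPM in IRF8KO; no choroid plexus list was examined. Il1rn, the natural antagonist of the interleukin-1 receptor, had 0 counts in WT and 13.8, 11.3 and 5.13 CPM in IRF8KO, at least 75.2-fold higher. C1qtnf12 and Serpina12, secreted factors of metabolic tissue, had means of 25.3 and 2.59 CPM in IRF8KO.

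Of the 5 receptors coupled to G proteins or scavenging chemokines, Adgre5 (CD97, an adhesion receptor of leukocytes) had the highest level, with 1.10, 0.0922 and 0.253 CPM in WT and 67.8, 69.2 and 72.5 CPM in IRF8KO. Ackr3, which removes the chemokine CXCL12, had 0, 1.94 and 0 CPM in WT, all of it in replicate 2, and 48.5, 46.7 and 25.3 CPM in IRF8KO. IRF8KO replicate 3 was the lowest IRF8KO library for Ackr3. Gpr83 and Gpr171 had 0 counts in WT and 5.03, 15.9 and 13.6 and 2.68, 5.18 and 3.13 CPM in IRF8KO. Mrgpra2a, from a family with close copies, had 3 counts over the WT libraries and 19.1, 12.8 and 8.51 CPM in IRF8KO.

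Enzymes of lipid and nucleotide metabolism made up 9 members. Aoah, which removes fatty acids from bacterial lipopolysaccharide, had 0.274, 0.553 and 0 CPM in WT and 66.6, 121 and 78.4 CPM in IRF8KO, a 321-fold difference with its highest level in IRF8KO replicate 2. G0s2, an inhibitor of the triglyceride lipase ATGL, had 0.822, 0.646 and 2.28 CPM in WT and 83.5, 85.8 and 95.4 CPM in IRF8KO, and Acaca, the enzyme that opens fatty acid synthesis, had 1.10, 1.75 and 1.14 CPM in WT and 37.4, 52.02 and 51.8 CPM in IRF8KO. Both sets of IRF8KO libraries were closer to each other than those of Aoah. Ch25h, which makes 25-hydroxycholesterol, had 3 counts in WT, all in replicate 2, and 20.1, 57.7 and 43.6 CPM in IRF8KO, a ratio of 317 (exact 95% counting interval 108 to 1538). Vnn3, a pantetheinase of the vanin family, had the highest level of all members without a WT count, at 27.01, 49.7 and 38.7 CPM in IRF8KO, at least 287-fold higher against the floor, with 239.7 as the lower end of its exact interval. Cd38, an enzyme that consumes NAD, and Alox15, a lipoxygenase, also had 0 counts in WT. Cd38 was at 8.39, 28.4 and 22.7 CPM in IRF8KO and at least 148-fold higher, and Alox15 was at 17.6, 23.2 and 8.76 CPM and at least 123-fold higher. Alox15 is known from macrophages of the peritoneum. The other markers on a joint list of peritoneal and liver (Kupffer) macrophages stayed low, with 5 of 9 at 0 counts in all libraries. The single gene tested, Icam2, averaged 3.26 CPM in WT and 1.26 CPM in IRF8KO and was not called. Cd5l, too low to test, had 0.822, 0 and 0 CPM in WT and 0.336, 1.11 and 5.01 CPM in IRF8KO. Nt5e and Ephx2 were at 2.01, 7.03 and 4.01 and 2.18, 11.7 and 13.8 CPM in IRF8KO.

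Antiviral and nucleic acid sensing genes gave 6 members. Oas2 and Oas3, which make the messenger that switches on RNase L when double-stranded RNA is present, were at 36.7, 61.4 and 19.5 and 12.7, 7.77 and 8.26 CPM in IRF8KO. Oas2 had 0.548, 0.277 and 0 CPM in WT, a 143-fold difference, and Oas3 had 0 counts, at least 71.6-fold higher. IRF8KO replicate 3 was the lowest IRF8KO library for Oas2. Ifitm2 and Ifitm1, membrane proteins that block entry of viruses, were also a neighbouring pair. Ifitm2 had 0.274, 0.277 and 0.507 CPM in WT and reached 37.9, 29.3 and 60.1 CPM in IRF8KO. Ifitm1 had 0, 0.184 and 0 CPM in WT and reached 9.90, 7.77 and 17.02 CPM in IRF8KO, and replicate 3 was the highest IRF8KO library for both. The Ifitm genes have close copies, and 40.9% of the exonic length of Ifitm2 overlaps another gene, so their values are uncertain. Nlrc3, a NOD-like receptor that restrains signalling, had 1 count in WT against 625 in IRF8KO, at 25.5, 34.6 and 24.03 CPM, a ratio of 634 (exact 95% counting interval 113 to 25091). Samd9l had 3 counts in WT and 4.36, 8.63 and 4.01 CPM in IRF8KO.

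Regulators of transcription, cell cycle and signalling numbered 14. Ccnd2, the cyclin D2 that drives entry into the cell cycle, had 0, 1.20 and 0 CPM in WT, all of it in replicate 2, and 68.4, 91.5 and 112 CPM in IRF8KO, a 227-fold difference. Pstpip1, a cytoskeletal adaptor linked to autoinflammation, had 2.47, 2.31 and 4.56 CPM in WT and 80.2, 110.1 and 101 CPM in IRF8KO and sat just inside the limit, at 31.2-fold. A pair of nuclear receptors of the retinoid pathway were members. Rxrg had 0.548, 1.20 and 0.253 CPM in WT and 59.2, 54.2 and 50.8 CPM in IRF8KO, an 82.1-fold difference, and Rara had 0 counts in WT and 12.6, 11.8 and 22.5 CPM in IRF8KO, at least 117-fold higher. Plekhg3 had 0 counts in WT and 23.7, 24.04 and 14.02 CPM in IRF8KO, at least 154-fold higher. Ripk4 was the most uneven member of all, at 0, 0 and 0.760 CPM in WT and 35.9, 8.14 and 4.26 CPM in IRF8KO, where replicate 1 held most of the signal. Dusp5, a phosphatase of ERK, had 0.274, 1.94 and 0.507 CPM in WT and reached 35.2, 37.6 and 17.5 CPM in IRF8KO. The remaining 7 (Gas7, Arhgap15, Iqgap2, Sash1, Tnik, Zap70 and Myt1l) had means of 4.73 to 9.29 CPM in IRF8KO.

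Trafficking and cytoskeletal genes gave 7 members. Unc119, a carrier of lipid-tagged proteins, had 3 counts in WT and 38.1, 35.3 and 50.1 CPM in IRF8KO, a ratio of 309 (exact 95% counting interval 105 to 1500.3). Ehd1, which drives the return of endocytosed receptors to the surface, had 0, 0.553 and 0.633 CPM in WT and was level in IRF8KO at 41.3, 41.3 and 38.8 CPM. Reps2, an endocytosis adaptor, had 0 counts in WT and 8.05, 11.7 and 11.9 CPM in IRF8KO, at least 78.7-fold higher. Syne1, Dram1, Trim55 and Rab44 had means of 24.6, 17.5, 6.70 and 5.79 CPM in IRF8KO.

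Genes best known from neurons and other excitable cells numbered 8 and were low, at 2.99 to 15.8 CPM. Srrm3, a splicing factor for neuronal microexons, had 0, 0.0922 and 1.14 CPM in WT and 16.1, 16.03 and 15.1 CPM in IRF8KO, a 38.4-fold difference with hardly any spread in IRF8KO. The synaptic genes Syn2, Rph3a and Erc2 reached 5.54, 2.47 and 5.38, 2.18, 6.04 and 2.63 and 2.18, 3.82 and 3.76 CPM in IRF8KO, and the channel genes Scn8a and Kcnh2 reached 2.52, 3.45 and 3.004 and 3.02, 4.81 and 3.13 CPM. Scrn1 and Cpne8 were at means of 3.79 and 4.36 CPM. The list of other neuronal markers moved with this group: its summed level was 0.830 to 8.99 CPM in WT and 32.4 to 34.2 CPM in IRF8KO, and 2 of its 4 tested genes, Rbfox3 and Syt1, were called higher. Both calls were lost without some single library, at adjusted p of up to 0.0506 and 0.179 in the edgeR test. Slc17a7 had 0.822, 0.0922 and 0.760 CPM in WT and 3.86, 3.21 and 3.51 CPM in IRF8KO, and Map2 had 1.10, 0 and 0.760 CPM in WT and 2.85, 1.85 and 3.25 CPM in IRF8KO. For both, no library of one genotype reached the other, and neither was called (adjusted p = 0.0679 and 0.192 in the edgeR test). Among those too low to test, Syn1 had 0 counts in WT and 5.54, 1.60 and 0.501 CPM in IRF8KO, while Snap25 had 0.822, 0 and 0.253 CPM in WT and 0.168, 1.11 and 1.38 CPM in IRF8KO and overlapped, as did Tubb3, Nefl, Stmn2 and Gad1. The part of neuronal RNA in these members' levels was not tested.

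Tmem51, a membrane protein of little-known function, led the 6 other membrane proteins, with 4 WT counts, all in replicate 1, and 87.2, 84.6 and 75.9 CPM in IRF8KO. Tspan8 and Tspan10, of the tetraspanins that organise membrane domains, were at 13.3, 12.5 and 14.3 and 2.01, 5.55 and 4.01 CPM in IRF8KO, and Plp2 and Pkd1l2 had means of 7.59 and 3.92 CPM. Tm4sf5 had 2.85, 3.33 and 2.75 CPM in IRF8KO. Cox6a2, the muscle form of a subunit of cytochrome c oxidase, was at 3.29, 4.61 and 2.53 CPM in WT and 103, 112 and 122 CPM in IRF8KO, a 32.3-fold difference. Its coefficient of variation over the IRF8KO libraries was 8.52%. Gm1673, Trank1, Ccdc9b and Ahnak2, in none of these roles, had means of 23.9, 7.56, 5.25 and 5.05 CPM in IRF8KO.

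How firmly a member belongs to the set depended on its WT counts. Of the 29 members without a WT count, 6 had a fold against the floor under 30, and 10 had the lower end of their exact interval under 30. Among these 29, Serpina12 was the lowest on both, at 19.4 and 14.9. Members with WT counts also had lower ends under 30, such as 8.01 for Smoc1, 10.03 for Erc2 and 10.6 for Myt1l. For some of them the ratio of the scaled counts was itself under 30, at 24.4 for Smoc1 and 25.1 for Iqgap2. For 30 members all WT counts came from a single library, which was replicate 2 for 16, replicate 3 for 12 and replicate 1 for 2. The depths of these libraries were 10842794, 7894115 and 3650724 gene counts without Apoe in that order. With any 1 library left out, 81 members still met the limits and 20 missed them at least once. Without WT replicate 3 the number of genes that met the limits rose from 101 to 153, of which 92 were among the 101. The members nearest the limit inside it were Myt1l at 30.04-fold, Gas7 at 30.6-fold, Ephx2 at 30.96-fold, Tspan8 at 31.2-fold and Pstpip1 at 31.2-fold. Just outside were Scimp at 28.98-fold, Pdlim7 at 28.9-fold, B3gnt8 at 28.6-fold, Cd300ld at 28.2-fold and Gm49339 at 28.03-fold. Myt1l, a zinc finger factor known from neurons, had 0, 0.0922 and 0.380 CPM in WT and 2.01, 6.16 and 6.01 CPM in IRF8KO. Gas7 had 0, 0.277 and 0.633 CPM in WT and 9.73, 8.51 and 9.64 CPM in IRF8KO. Both had no count in WT replicate 1, the shallowest library. Scimp, an adaptor of myeloid cells, had 8.77, 3.41 and 3.93 CPM in WT and 185, 145 and 136 CPM in IRF8KO, above Pstpip1 in every IRF8KO library. Pdlim7 had 0, 0.461 and 0.760 CPM in WT and 15.1, 8.26 and 11.9 CPM in IRF8KO, and B3gnt8 had 3.83, 5.26 and 15.5 CPM in WT and 276, 209 and 216 CPM in IRF8KO. In both, the highest WT library was replicate 3. Cd300ld had 0.822, 3.04 and 0.887 CPM in WT and 49.8, 46.97 and 37.2 CPM in IRF8KO, and Gm49339 had 1.92, 4.70 and 0.253 CPM in WT and 41.3, 90.4 and 61.1 CPM in IRF8KO.

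Spread between the IRF8KO libraries was wide for some members and narrow for others. The median coefficient of variation over the 3 libraries was 28.6% for the members and 21.3% for 7995 other protein-coding genes with at least 2 CPM in each; this difference was not tested. For 39 members the highest IRF8KO level was more than 2 times the lowest, and for 3 (Ripk4, Itga4 and Ephx2) it was more than 5 times. At the other end, 17 members had a coefficient of variation under 10%, among them Srrm3, Adgre5, Pilra, Ehd1 and Clec4n. The highest library was IRF8KO replicate 1, 2 and 3 for 27, 43 and 31 members, or 26.7%, 42.6% and 30.7%, beside 21.8%, 46.3% and 32.0% of the other expressed genes. Without replicate 2, the library with the neutrophil genes, 105 genes met the limits, 93 of them among the 101, and the 8 lost were Arhgap15, Dusp5, Ephx2, Iqgap2, Myt1l, Pstpip1, Rph3a and Ttr.

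On the chromosomes, 16 of the 101 members lay within 200 kb of another, in 7 groups. These were Pilra, Pilrb1 and Pilrb2 on chromosome 5, Oas2, Oas3 and Rph3a on chromosome 5, Clec4n and Clec4d on chromosome 6, Ifitm2 and Ifitm1 on chromosome 7, Alox15 and Tm4sf5 on chromosome 11, Cd300lb and Cd300e on chromosome 11, and Trem1 and Trem3 on chromosome 17. The shortest gap was 0.853 kb, between Trem1 and Trem3. Chromosomes 5 and 6 held 11 members each, 10.9% of the set, beside 5.78% and 5.03% of all protein-coding genes. Chromosomes 4, 7 and 11 held 1.98%, 7.92% and 8.91% of the members, beside 6.09%, 9.23% and 7.53% of all protein-coding genes. Each autosome and the X chromosome held at least 1 member. These shares carry no test, and gene families in clusters are not independent of each other. The share of other genes within 200 kb of each other was not worked out.

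Genes around these 7 groups that were not members could be tested, since the limits did not choose them. Of 66 other protein-coding genes within 100 kb, 30 passed the filter; 10 of them rose in IRF8KO and 0 fell (edgeR; 15 and 0 at an unadjusted p under 0.05, and 11 and 0 by DESeq2), beside 9.51% higher and 9.91% lower among all protein-coding genes tested. Of the 10, 5 belong to the Cd300 and Oas families (Cd300a, Cd300ld, Cd300lf, Oas1a and Oas1g), and the others were Pelp1, Med11, Cxcl16, Mink1 and Pgghg. The count of 10 became 4, 9 and 4 without IRF8KO replicates 1, 2 and 3, and 5, 6 and 17 without WT replicates 1, 2 and 3. These neighbours share a place on the chromosome and are not independent of each other, and Cd300ld lay just outside the limits. Cd300ld rose from 1.58 to 44.7 CPM (log2 fold change 4.73, SE 0.51; adjusted p = 8.8e-05 in the edgeR test), and Cd300lf, an inhibitory receptor of the family, rose from 10.3 to 44.6 CPM (log2 fold change 2.25, adjusted p = 0.00626 in the same edgeR test). Oas1a rose from 12.2 ± 1.33 to 63.7 ± 8.79 CPM (SD, n = 3; log2 fold change 2.40, adjusted p = 0.000357 in the same edgeR test). Cd300c2 beside Cd300lb (383 and 621 CPM), Clec4a2 beside Clec4n (25.8 and 34.2 CPM), Treml2 beside Trem1 (6.32 and 4.18 CPM) and Ifitm3 beside Ifitm1 (25.5 and 46.8 CPM in WT and IRF8KO) were not called. Called and uncalled genes lay side by side, as the plot of levels along each group shows.

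**Figure D3:**
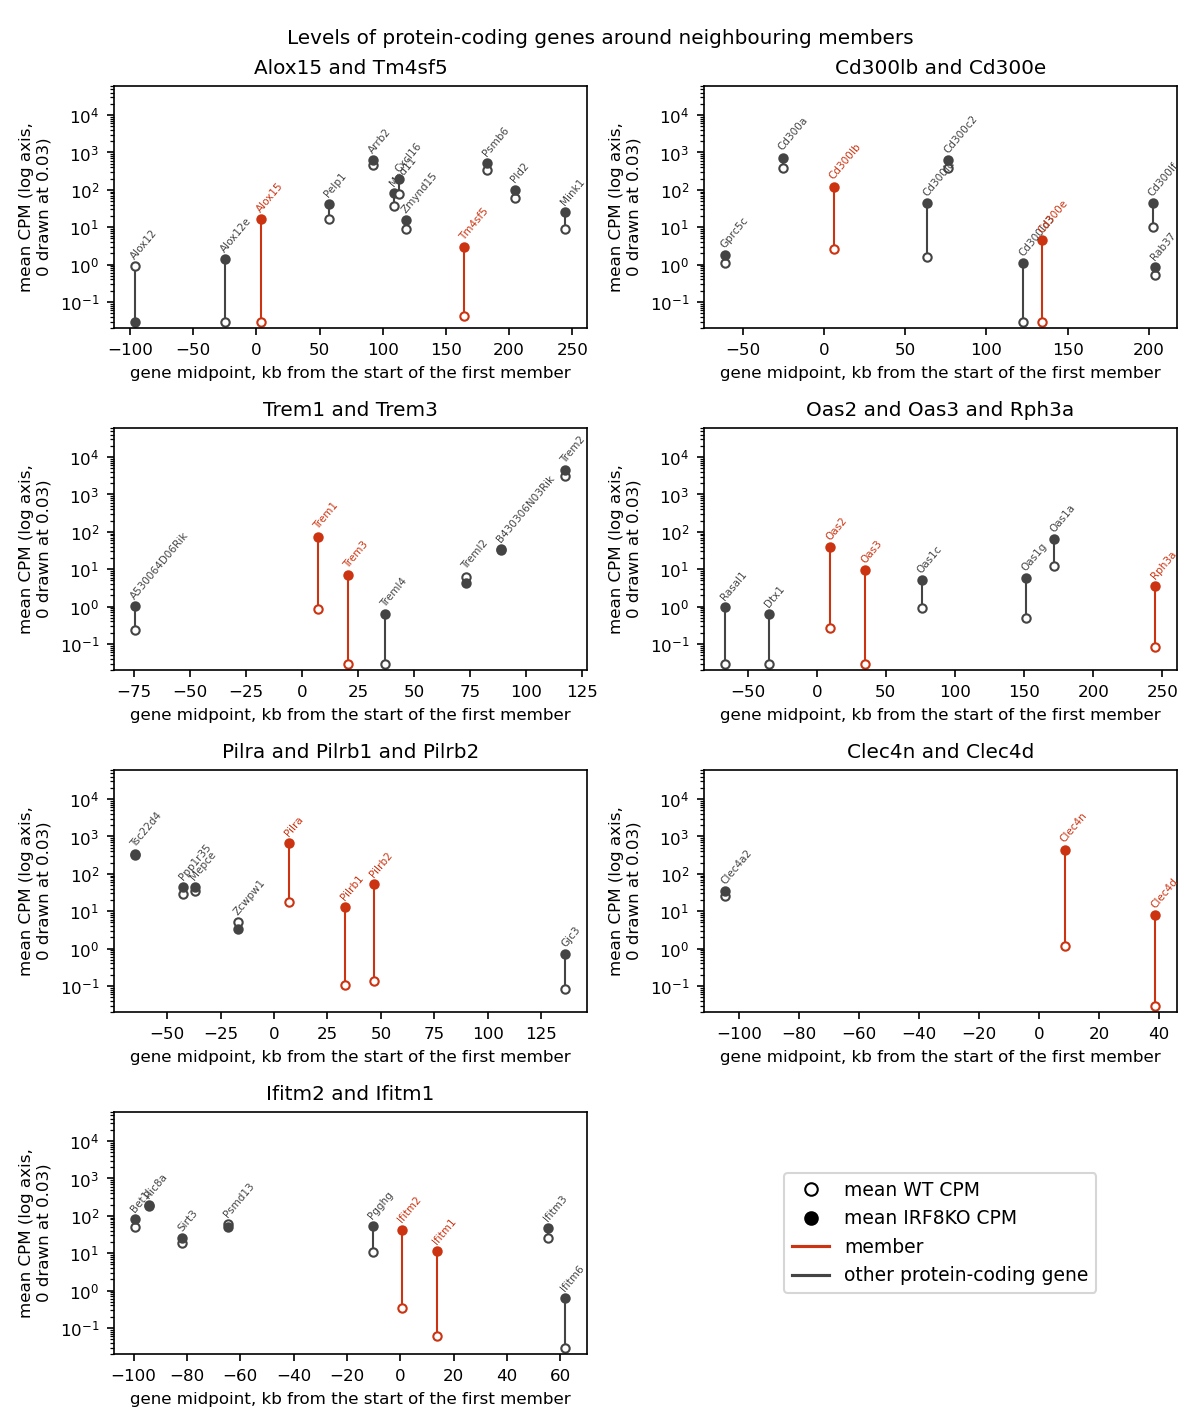
Mean CPM (y axis, log scale, 0 drawn at 0.03) of protein-coding genes around the 7 groups of neighbouring members, by the position of the gene's midpoint in kb from the start of the first member (x axis). Open circles are WT means, filled circles IRF8KO means, with members in red and other genes in gray where either mean was at least 0.5 CPM; the members' lines span more than a factor of 30 while Trem2, Clec4a2 and Ifitm3 beside them have close circles.

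The nearest protein-coding neighbours on both sides of every member gave a wider check. Of 182 such genes, with members and the genes that the rule sets aside by name left out, 87 passed the filter; 11 rose and 11 fell in IRF8KO, 12.6% each, with a median log2 fold change of −0.18, beside −0.14 over all protein-coding genes tested (edgeR quasi-likelihood test). Lyzl4, a lysozyme-like gene next to Cck, rose from 2.51 ± 1.68 to 50.7 ± 5.62 CPM (SD, n = 3; log2 fold change 4.34, adjusted p = 6.98e-05), and Ly6a, the stem-cell antigen next to Ly6i, rose from 7.65 ± 1.40 to 53.5 ± 3.50 CPM (log2 fold change 2.84, adjusted p = 0.000153). These 2 of the 11 higher calls held with any 1 library left out. Of the 6 neighbours set aside by name, all solute carriers, Slc1a2 next to Cd44, a glutamate transporter of astrocytes, also rose, from 0.164 ± 0.0965 to 4.97 ± 2.79 CPM (log2 fold change 4.96, adjusted p = 0.00535), and its call held with any 1 library left out, at an adjusted p of up to 0.0316. Ly86, which encodes the partner of the Toll-like receptor homologue CD180 and lies next to F13a1, fell from 373 ± 182 to 3.08 ± 1.29 CPM (log2 fold change −6.81, adjusted p = 3.38e-06). Lag3, an inhibitory receptor next to Cd4, fell from 66.4 ± 11.5 to 10.1 ± 4.43 CPM (log2 fold change −2.72, adjusted p = 0.00178), and Acox3, a peroxisomal oxidase next to Htra3, fell from 234 ± 85.4 to 47.5 ± 13.997 CPM (log2 fold change −2.27, adjusted p = 0.000345). Those 3 and BC035044, next to Klrb1b, kept their lower calls with any 1 library left out. The count of 11 higher calls became 4, 6 and 3 without IRF8KO replicates 1, 2 and 3, 3 without WT replicate 1 or 2, and 20 without WT replicate 3, while the 983 protein-coding genes called higher became 584, 898 and 491, 620 and 576, and 2046 in the same order.

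Protein-coding genes that share a name stem with a member were compared in the same way, although a shared name is not always shared descent. Of 903 such genes, 429 passed the filter; 43 rose (10.02%) and 51 fell (11.9%), with a median log2 fold change of −0.03 (edgeR quasi-likelihood test). The count of 43 was 18, 40 and 19 without IRF8KO replicates 1, 2 and 3, 26 and 24 without WT replicates 1 and 2, and 102 without WT replicate 3. Iqgap1, the scaffold protein related to the member Iqgap2, rose from 3.47 ± 1.15 to 70.5 ± 24.2 CPM (SD, n = 3; log2 fold change 4.22, adjusted p = 4e-05). Alox5, the lipoxygenase that opens leukotriene synthesis, rose from 121 ± 50.8 to 443 ± 38.5 CPM (log2 fold change 1.78, adjusted p = 0.0125), and Cox6a1, the common form of the Cox6a subunit, rose from 172 ± 13.9 to 451 ± 55.6 CPM (log2 fold change 1.37, adjusted p = 0.0114). The calls of Alox5 and Cox6a1 were lost without some single library, at adjusted p of up to 0.0646 and 0.0798, while that of Iqgap1 was kept in each of these fits. Tspan13 fell from 155 ± 36.9 to 19.3 ± 5.14 CPM (log2 fold change −2.94, adjusted p = 0.000152), while its namesakes Tspan8 and Tspan10 were members. Of the stems with several members, Oas had 2 higher calls among 3 relatives tested, Tspan 3 higher and 4 lower among 12, Gpr 4 higher and 4 lower among 22, and the 2 Clec, 2 Ifitm and 1 Trem relatives tested were not called. Clec7a, the receptor Dectin-1, is not among the Clec relatives because the annotation does not class it as protein-coding, and it rose from 4.72 ± 1.27 to 48.8 ± 29.6 CPM (log2 fold change 3.23, adjusted p = 0.000715, and up to 0.00407 with any 1 library left out).

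Promoters of the members were searched for 10 short motifs on both strands. Windows of 300 bases, 250 before and 50 after the RefSeq start site (GRCm38.p6), were found for 76 of the 101 members. They were set beside the windows of 49 genes of the mirrored rule (at least 2 CPM in every WT library and at most 1/30 of that mean in IRF8KO, 62 genes in all), of 6449 other genes expressed in IRF8KO and of 16454 protein-coding genes of the tables. A match is a description of letters and shows no binding.

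The interferon-stimulated response element occurred in 10 of 76 windows (13.2%), beside 2.04% for the mirrored rule, 2.93% for the other expressed genes and 3.47% for all. The 10 were Oas3, Ifitm2, Pilra, Pilrb1, Pilrb2, Clec4d, Aoah, Cxcl14, Emilin2 and Srrm3, of which only Oas3 and Ifitm2 are in the antiviral group. The Pilr windows are near-copies, so their 3 matches are not independent. The ETS-IRF composite element (GGAA and GAAA parted by any 2 bases), the joint site of PU.1 and IRF8, was found in 2 of 76 (2.63%), beside 2.37% of the other expressed genes and 2.66% of all windows, and in 0 members did it overlap the response element match. In the Pilra window it overlapped a match to the PU.1 core. The PU.1 core GAGGAAG was in 17.1% of the members' windows, 20.4% of the mirrored set, 13.7% of the other expressed genes and 13.1% of all.

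Shares of the other motifs are given for the members, the other expressed genes and all windows in that order. They were 19.7%, 7.88% and 9.99% for C/EBP (TTGCNNAA), 21.1%, 12.2% and 14.8% for RUNX (TGTGGT), and 11.8%, 4.33% and 6.96% for AP-1 (TGANTCA). The E-box CACGTG was in 5.26%, 10.8% and 8.09%, and the TATA box TATAAA in 13.2%, 6.16% and 12.8%. The MAF motif TGCTGAC was in 2.63%, 3.27% and 4.13%, and the NF-kB motif (GGG and TTTCC parted by any 2 bases) in 2.63%, 1.44% and 1.55%. Among the 49 windows of the mirrored rule, C/EBP and RUNX were each in 12.2%, AP-1 and the TATA box each in 10.2%, the E-box in 2.04%, and MAF and NF-kB in 0. In all, 45 of the 76 windows held at least 1 of the 10 motifs.

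Base composition differed too, with no test made. Windows with at most 5 CG dinucleotides made up 43.4% of the members', 30.6% of the mirrored set's, 6.85% of the other expressed genes' and 30.7% of all windows. The median GC content was 54.2%, 58.7%, 61.3% and 57% in the same order. Motif shares move with base composition, and the part of composition in the shares above was not tested. The median exonic length was 3690 bases for the members and 4412 bases for the other expressed genes, while the median span of the gene was 25.9 kb and 21.7 kb; neither difference was tested.

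**Figure D4:**
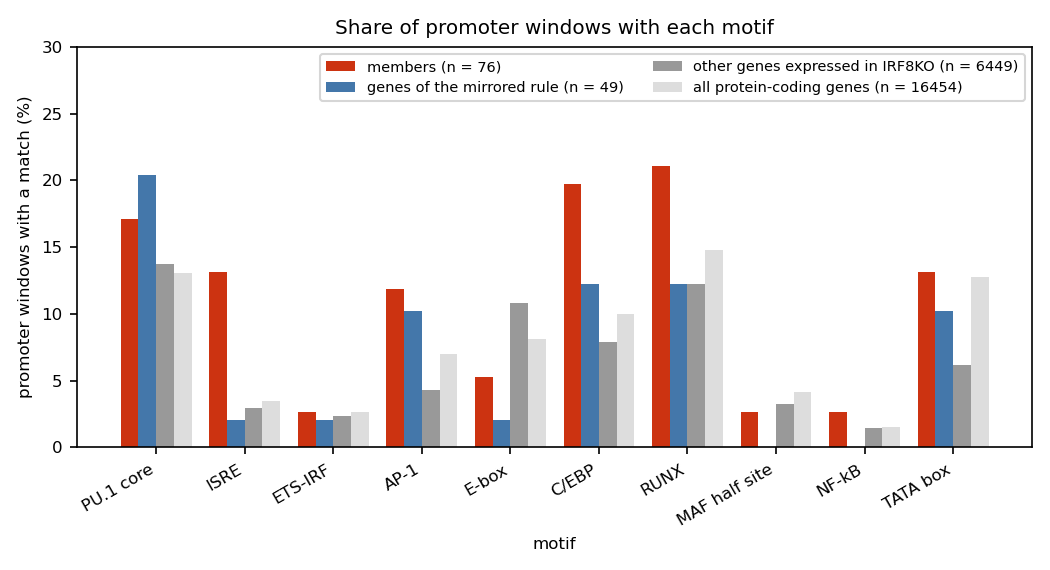
Share of promoter windows (y axis, %) with at least 1 match to each of 10 motifs (x axis), where ISRE is the interferon-stimulated response element. Bars are the members (n = 76), the genes of the mirrored rule (n = 49), other genes expressed in IRF8KO (n = 6449) and all protein-coding genes (n = 16454); the red bar for ISRE stands at 13.2% beside 2.04% to 3.47% for the other sets.

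The cells' identity was checked with marker lists, members left out. Microglial markers were abundant in every library, with summed levels of 71891 to 78132 CPM in WT and 55410 to 62043 CPM in IRF8KO, and Csf1r, Tmem119 and C1qa were not called. Of the 15 microglial genes tested, 7 fell and 1 rose (edgeR quasi-likelihood test). Sall1, the transcription factor that marks microglia, had 202, 166 and 46.9 CPM in WT and 0 counts in every IRF8KO library, and P2ry12, the purinergic receptor of resting microglia, had 1422, 1464 and 377 CPM in WT and 25.2, 138 and 24.3 CPM in IRF8KO. WT replicate 3 was the lowest WT library for both. Fcrls, the gene that rose, had 2883, 3241 and 3060.4 CPM in WT and 8351, 7819 and 7298 CPM in IRF8KO, and its call was lost without some single library, at an adjusted p of up to 0.105 in the edgeR test.

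Border macrophages, which live in the meninges and around vessels, share several genes with the set: Cd163 and F13a1 were members, and Pf4, Ms4a7 and Siglec1 met the limits but were set aside by name. Of the 10 other markers, 6 could be tested and 5 rose, with a median log2 fold change of 3.61 over those tested. Ccr1, the sixth, had 12.3, 7.47 and 4.56 CPM in WT and 1.85, 3.08 and 0 CPM in IRF8KO and was not called (log2 fold change −2.26; adjusted p = 0.112 in the edgeR test). The list was chosen with its difference known, so its direction is not independent evidence. Mrc1, the mannose receptor, had 5.20, 3.41 and 2.79 CPM in WT and 25.7, 83.5 and 37.6 CPM in IRF8KO, and Tgfbi, a matrix protein, had 50.7, 63.3 and 46.4 CPM in WT and 822, 785 and 770.2 CPM in IRF8KO. The summed level of the list was 819 to 936 CPM in WT and 3001 to 3586 CPM in IRF8KO, most of it from Stab1. Lyve1 and Cd209f, which define subsets of border macrophages, had 0 counts in all 6 libraries, and Folr2 and Clec10a were at or near 0. The monocyte list summed to 0.380 to 1.94 CPM in WT and 3.13 to 64.4 CPM in IRF8KO. Its highest levels were in IRF8KO replicate 2: Chil3 had 0, 47.6 and 0 CPM, Plac8 0, 6.41 and 0 CPM and Ly6c2 0, 3.82 and 0 CPM in IRF8KO. F10 was at 0 and Ccr2 at or under 1.11 CPM in every library, and Fn1 rose, from 0, 0.0922 and 0.127 CPM in WT to 4.19, 5.18 and 1.75 CPM in IRF8KO. On the neutrophil list, Cxcr2, a chemokine receptor, rose: it had 0 counts in WT and 1.68, 5.67 and 2.003 CPM in IRF8KO (adjusted p = 0.00709 in the edgeR test, and up to 0.0346 with any 1 library left out). Csf3r, the receptor for a granulocyte growth factor, was at 916, 952 and 919 CPM in WT and 1342, 1367 and 1003 CPM in IRF8KO and was not called. On the dendritic cell list, Zbtb46, a transcription factor, rose from 5.58 ± 2.05 to 30.9 ± 8.27 CPM (SD, n = 3; adjusted p = 0.00137 in the edgeR test) and Batf3, another, fell from 27.6 ± 4.29 to 1.21 ± 1.41 CPM (adjusted p = 0.00246 in the edgeR test), while Clec9a, Cd209a and Ccr7 had 0 counts throughout. The part of other cells in the members' levels was not tested beyond these values.

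**Figure D5:**
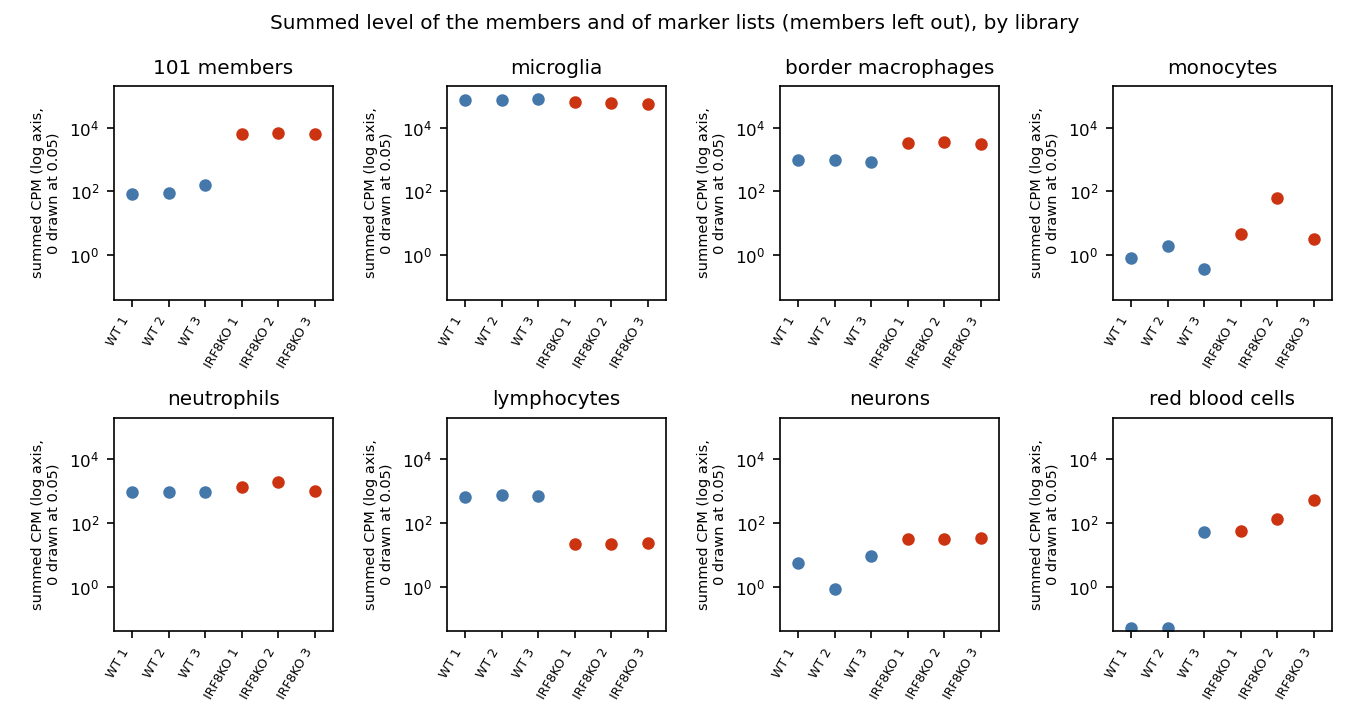
Summed CPM (y axis, log scale, 0 drawn at 0.05) of the 101 members and of 7 marker lists without members, in each of the 6 libraries (x axis), WT in blue and IRF8KO in red. The members go from 81.6 to 162 CPM in WT to 6250 to 6672 CPM in IRF8KO, border macrophage genes go from 819 to 936 CPM to 3001 to 3586 CPM, and red blood cell genes vary from 0 to 504 CPM with WT replicate 3 close to IRF8KO replicate 1.

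Endothelial genes summed to 17.1 to 41.9 CPM in WT and 3.02 to 13.3 CPM in IRF8KO, and Pecam1 fell from 23.1 to 2.33 CPM (log2 fold change −3.26; adjusted p = 0.00143 in the edgeR test). Flt1 on the same list, which did not pass the filter, had 0 counts in WT and 0.839, 10.8 and 7.39 CPM in IRF8KO. Of the 7 astrocyte genes tested, Gfap, Aldh1l1, Slc1a2 and S100b rose, and the calls of Gfap and Aldh1l1 were lost without some single library, at adjusted p of up to 0.164 and 0.143 in the edgeR test. Slc1a3, a glutamate transporter, fell, from 268, 234 and 77.5 CPM in WT to 8.22, 21.6 and 3.13 CPM in IRF8KO, and it made up most of the list's sum in WT replicates 1 and 2. The sums were 161 to 300.2 CPM in WT and 140 to 215 CPM in IRF8KO. Oligodendrocyte genes summed to 371 to 644 CPM in WT and 559 to 724 CPM in IRF8KO, with genes that differed in direction. Mbp, of the myelin sheath, had 192, 57.3 and 252 CPM in WT and 569.7, 552 and 421 CPM in IRF8KO and was not called, while Cnp, an enzyme of myelin, fell from 175, 204 and 253 to 64.9, 53.3 and 40.1 CPM (adjusted p = 0.00283 in the edgeR test).

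On the list of genes of disease-associated microglia, with Apoe and Cst7 set aside by name, 14 were tested, 7 rose and 1 fell, with a median log2 fold change of 1.29. Those that rose were Gpnmb, Igf1, Clec7a, Cd63, Csf1, Cd9 and Tyrobp, and Axl fell. The calls of Gpnmb, Cd9, Tyrobp and Axl were lost without some single library, at adjusted p of up to 0.113, 0.169, 0.0975 and 0.121 in the edgeR test. Cd63, a tetraspanin of lysosomes, rose from 415 ± 13.3 to 2612 ± 309 CPM (SD, n = 3), and Spp1 stayed at or under 1.29 CPM in every library. Apoe and Cst7, which met the limits of the rule, had 2345 and 8.74 CPM on average in WT and 413407 and 384 CPM in IRF8KO.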

How the data were processed

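Transcripts of sorted microglia were measured by RNA sequencing in 3 WT and 3 IRF8KO libraries. The authors deposited raw counts per gene in the layout that STAR writes, with 4 summary lines that were left out; the count that ignores strand was used. Per the submitters' processing notes, the tools were bcl2fastq, STAR 2.5.2b, Picard 2.17.11, Subread and featureCounts with genome build mm10, given without roles; the annotation release and filters are not given in the sources used here. Of 49585 genes, 49326 were matched to GENCODE M21 (GRCm38) for symbols and positions, and 259 were not. Counts, filtered by edgeR's default (minimum count 10), were tested with edgeR 4.0.16 (TMM, quasi-likelihood F test) in R 4.3.3, with Benjamini-Hochberg adjustment over 11041 genes and calls at an adjusted p under 0.05. The test was tried on simulated data first. The replicates came from separate brains.

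The members, gene lists and motifs were chosen with earlier results of these data known, and the 12 roles were assigned after the values were seen. IRF8KO values by library were given for the 30 members with the highest mean in IRF8KO, members in clusters or with a shared name stem, the 10 highest without a WT count and the 5 genes on each side of the limit, and for other members where the text turned on them; other genes named were on a marker list, beside a cluster, or called neighbours and relatives. Same-numbered libraries were not treated as paired, as the labels state no pairing. Their deviations from the group means correlated at −0.26, 0.33 and 0.11, and differently numbered libraries were not compared. More than 10% of exonic length overlaps another gene for 11 members (Ifitm2, Klrb1b, Adgre5, Dusp5, Gpc1, Plp2, Pilra, Tmem51, Ch25h, Egfl7 and Cox6a2), whose counts are uncertain without strand. Alternatives were other scalings, limits, filters, DESeq2 1.42.0, stranded counts and leaving out each library; for the genes around the clusters this was added after seeing the data. Some genes of the marker lists are not reported here.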

Additional observations from a re-analysis of the deposited data

How the results depend on the processing

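Over 7 results and 82 alternatives, 59 values stayed within 1.5 times the count reported (for the median log2 fold, within the replicate SD of 0.18) and 23 moved further. The number of genes that met the limits, 101, fell to 65 with Apoe kept in the denominator and to 65 with a minimum of 5 CPM, and lay between 105 and 153 with 1 library left out, the highest being without WT replicate 3; it was 75 at 1/50, 133 at 1/20, 134 at a minimum of 1 CPM, 92 with TMM scaling, and 99 and 86 with the stranded counts. The median log2 fold of the members, 5.94, was 5.44 with Apoe kept in the denominator and between 5.47 and 6.03 with 1 library left out. With 1 library left out, the protein-coding genes called higher (983) ranged from 491 to 2046, the neighbours (11) from 3 to 20 and the relatives (43) from 18 to 102; in each case WT replicate 3 gave the highest count. DESeq2 gave 1251, 16 and 63 for these 3 counts. The 5 border macrophage calls were the same genes in every fit but that with at least 10 counts in every library, which kept 4; the 7 microglial calls stayed between 6 and 8. Scaling by library size without Apoe shifted the median of all genes to −0.13, beside −0.11 under TMM.

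With the replicate number as a block, 1064 protein-coding genes, 9 neighbours, 49 relatives, 5 border macrophage genes and 7 microglial genes were called. The labels do not state that the numbers pair animals, and no statement rests on this replicate block. A WT library resolves no better than 0.277 to 0.822 CPM (3 counts), so folds of members near that level rest on few counts.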
